A study of Mus musculus with 8 samples.

Results

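Cdkn1a, Mdm2, Ccng1, Btg2, Plk3, Dcxr, Ephx1, Zmat3 and Sesn2, genes that the transcription factor p53 switches on, were followed in mouse mammary luminal cells. Together with Trp53, the gene of p53 itself, 10 genes had been chosen by symbol, and 9 of them had a named probe set among the 19505 genes measured, 1 set each. Trp53 was not analysed here, so the level of p53 messenger RNA was not examined and only its targets and partners are described. The series comprised 8 arrays, each of cells that had been sorted by flow cytometry from 15-day-pregnant mice, with 4 control arrays and 4 arrays labelled a3a6KO. The name a3a6KO denotes loss of the alpha 3 and alpha 6 integrin chains, the laminin receptor chains encoded by Itga3 and Itga6. The labels name no Trp53 allele in either group. They do not state the strain, the Cre line, the alleles that the controls carried or the part of either integrin gene that was removed. The titles of the a3a6KO arrays also hold the word Ctrl, and the groups follow the cell subtype label.

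p53 is held at a low level by Mdm2, an enzyme that marks it for degradation and is itself a p53 target. Stress such as DNA damage frees p53 from this control, and p53 then raises genes that halt the cell cycle, repair DNA, alter metabolism or start apoptosis. Cdkn1a encodes p21, an inhibitor of cyclin-dependent kinases through which p53 indirectly lowers many cell cycle genes. Because p53 is controlled largely at the level of its protein, the levels of its target genes are the usual readout of its activity in expression data. The question for these arrays was whether such genes differed between a3a6KO and control luminal cells.

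Values were log2 values after RMA, a procedure that makes the arrays alike in distribution. Each array carried 5222 intron control sets, and their 95th percentile on that array, between 6.38 and 6.9, served as background. The luminal keratin gene Krt8 and the casein gene Csn2 exceeded it on every array, as did all 13 luminal markers examined. Itga6 was at 8.83, 8.73, 9.14 and 8.80 on the control arrays and at 5.95, 3.65, 8.21 and 7.85 on the a3a6KO arrays. It thus still exceeded background on the arrays labelled a3a6KO 3 and 4, and where its probes lie relative to the removed part is not known here. Itga3 exceeded background on 1 control array and 0 a3a6KO arrays. The limma fit over all genes called 0 of 19505 genes at an adjusted p of 0.05 (0%), whereas 1000 genes (5.13%) had an unadjusted p under 0.05.

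The promoter sequences were searched for exact matches to the pattern of letters that p53 recognises. Sites with a mismatch or outside the windows were not looked for. p53 binds DNA as a tetramer to paired copies of a 10-base element, the p53 consensus decamer, whose pattern reads alike on both strands. RefSeq promoter windows (GRCm38.p6, 250 bases before to 50 bases after a transcript start) were found for 9 of the 10 genes, Zmat3 being the one without. The element was present in windows of 4 genes, Cdkn1a, Mdm2, Ccng1 and Trp53, and in 8.36% of all 32851 windows. Cdkn1a had 2 windows, and the one of its upstream start held a pair of exact matches separated by 12 bases. The 10 bases directly after the later match, tgacatgttc, miss the pattern only at their first letter. They were therefore neither counted nor put in capitals. A pair with at most 13 bases between its elements occurred in 24 of all windows (0.0731%). The stretches of the 3 measured genes are shown 5′ to 3′ on the strand of the gene, with the elements in capitals. They lie at chr17:29090846-29090978 for Cdkn1a (plus strand), chr10:117710875-117711004 for Mdm2 (minus strand) and chr11:40755402-40755531 for Ccng1 (minus strand), and the first element begins 73, 186 and 185 bases before the start, respectively.
Cdkn1a: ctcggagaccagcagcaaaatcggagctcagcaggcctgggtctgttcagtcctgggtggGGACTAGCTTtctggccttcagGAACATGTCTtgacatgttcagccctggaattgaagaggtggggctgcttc
Mdm2: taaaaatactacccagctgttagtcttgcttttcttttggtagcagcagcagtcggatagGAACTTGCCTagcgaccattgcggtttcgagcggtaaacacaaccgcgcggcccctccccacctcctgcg
Ccng1: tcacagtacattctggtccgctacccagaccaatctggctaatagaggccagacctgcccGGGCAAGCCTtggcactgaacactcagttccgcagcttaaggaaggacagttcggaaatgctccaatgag
A match is a run of letters and not a measured binding site. No match in the windows of Btg2, Plk3, Sesn2, Dcxr and Ephx1 says only that these letters are not within them.

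The p53 target genes were not higher in a3a6KO as a group. Of the 9 measured, 7 had a lower and 2 a higher mean in a3a6KO, with a median log2 difference of -0.41 (a3a6KO minus control, as in all differences given here). Over all genes, 50.1% had a lower mean and the median was -0.0025. The count of lower members is no evidence of direction, because Btg2, Plk3, Dcxr and Ephx1 had been named in earlier results of these same arrays as the p53 targets of smallest p. Of the other 5 genes, 3 were lower and 2 higher, with a median of -0.22. The limma fit called 0 of the 9 members, and their adjusted p-values over all genes were between 0.944 and 0.973. Cdkn1a, Btg2 and Dcxr exceeded background on all 8 arrays, Plk3 on 7 and Mdm2 on 6, whereas Ccng1, Zmat3, Sesn2 and Ephx1 exceeded it on none. Of all 19505 genes, 1609 exceeded it on every array and 14900 on none. The groups did not overlap in 1 of the 9 members, Btg2, and in 2.94% of all genes (1.56% with a3a6KO lower and 1.38% with a3a6KO higher).

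**Figure D1:**
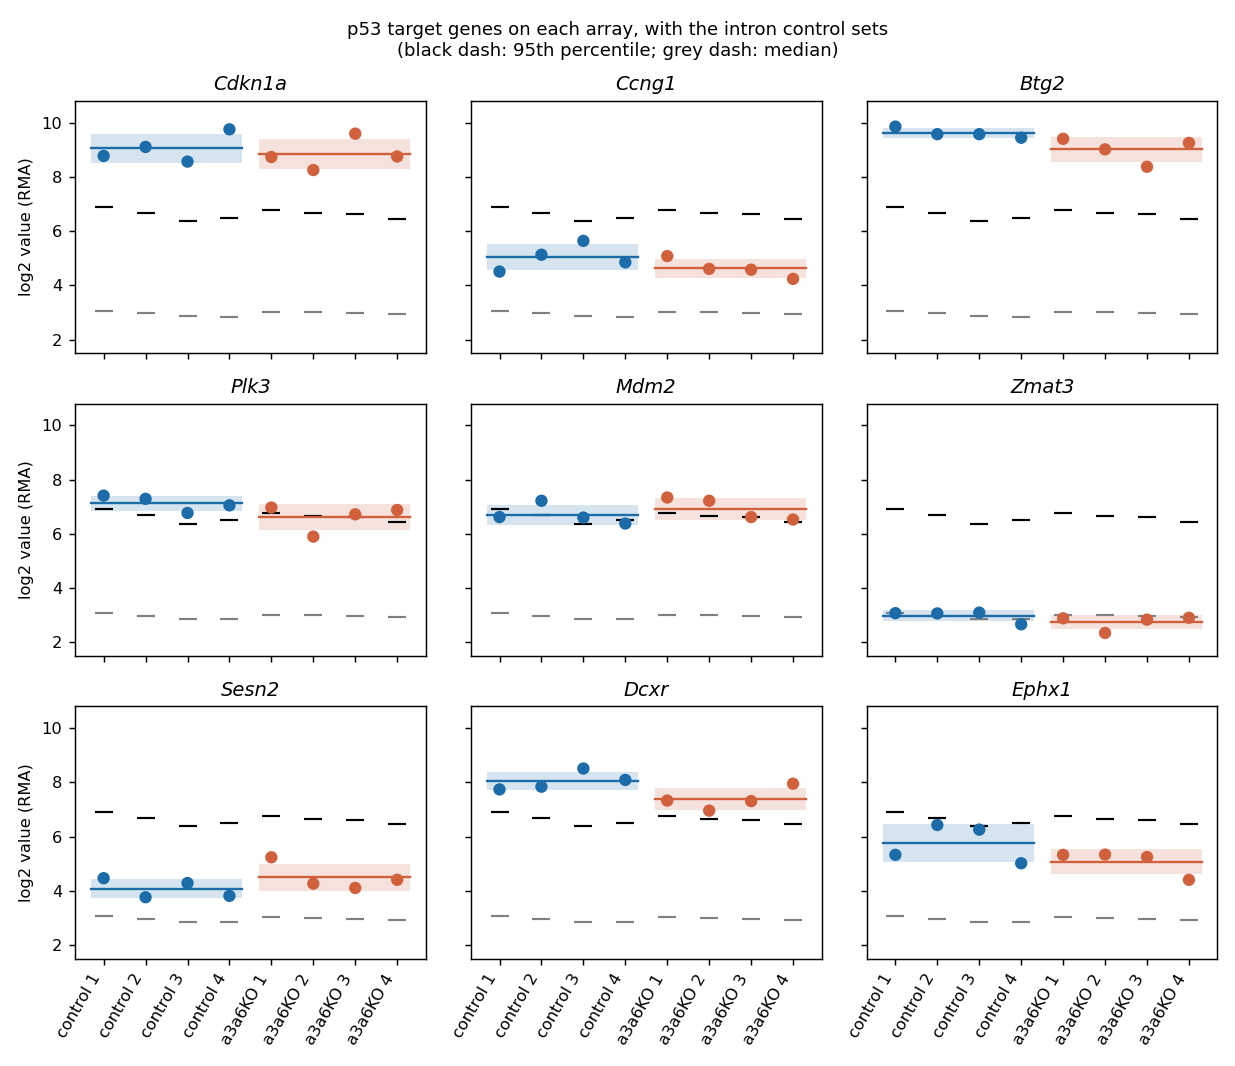
Log2 value (vertical axis) of 9 p53 target genes on each of the 4 control (blue) and 4 a3a6KO (orange) arrays, with the group mean as a line, 1 SD as a shaded band, and the median (grey dash) and 95th percentile (black dash) of that array's intron control sets. Cdkn1a, Btg2 and Dcxr lie above the black dashes on all 8 arrays, Zmat3 lies near the grey dashes, and Btg2 is the 1 gene whose groups do not overlap.

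Cdkn1a, the p21 gene and a widely used marker of p53 activity, was expressed clearly above background but did not separate the groups. Its log2 values were 8.77, 9.10, 8.56 and 9.75 in control and 8.73, 8.25, 9.59 and 8.75 in a3a6KO. Control 4 and a3a6KO 3 had the highest value of their group, and the ranges of the groups overlapped almost throughout. The means were 9.05 ± 0.52 and 8.83 ± 0.56 (SD, n = 4), a difference of -0.22 (SE 0.334, limma adjusted p = 0.973). The 95% interval of this difference ran from -0.97 to 0.54, so that a rise of more than 1.45-fold in a3a6KO lay outside it. Without control 4 the difference was 0.02, and without a3a6KO 3 it was -0.47, so its sign rested on single arrays.

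The arrays with the highest Cdkn1a were also those highest in markers of blood vessel cells. Endothelial markers (8 measured of 9 listed) had a mean deviation of 1.55 in control 4 and 1.04 in a3a6KO 3, against -0.91 to -0.12 on the other 6 arrays. Basal and myoepithelial markers (12 measured of 12) were likewise high on these arrays, at 1.36 and 0.72, and also on control 2, at 1.03. Fibroblast markers (7 measured of 8) were highest on control 4 and a3a6KO 3 too, at 0.30 and 0.68, with 6 of the 7 above background on no array. Of the endothelial markers 0 exceeded background on every array and 3 exceeded it on no array. With control 4 and a3a6KO 3 both left out, Cdkn1a differed by -0.23 (SE 0.241, limma adjusted p = 0.956). The part of other cell types in the level of Cdkn1a was not tested. In such bulk samples fewer cells of a type and less RNA per cell cannot be told apart.

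Among 1598 genes above background on every array, those whose values followed Cdkn1a most closely across the 8 arrays, after the group mean was removed from each, were Rap1b, BC031181 and Cfl1. Their Pearson correlations with Cdkn1a were 0.968, 0.959 and 0.938, given as a description of genes measured on the same arrays. Rap1b encodes a small GTPase of cell adhesion and Cfl1 the actin-severing protein cofilin. Like Cdkn1a, Rap1b was highest on control 4 (9.67) and a3a6KO 3 (9.39) and lowest on a3a6KO 2 (8.92). Rap1b differed by -0.20 and Cfl1 by 0.0025 between the groups, with limma adjusted p-values of 0.950 and 0.998.

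Btg2, an antiproliferative gene that p53 induces, was lower on every a3a6KO array than on every control array, by a narrow margin. Its log2 values were 9.85, 9.57, 9.57 and 9.44 in control and 9.40, 9.01, 8.37 and 9.25 in a3a6KO. The lowest control and the highest a3a6KO value were 9.44 and 9.40, and a3a6KO 3 lay well below the rest. The means were 9.61 ± 0.17 and 9.01 ± 0.45 (SD, n = 4), a difference of -0.60 with a 95% interval from -1.13 to -0.07. The limma adjusted p over all genes was 0.944 (unadjusted p = 0.0314), so Btg2 did not pass. Without a3a6KO 3 the difference was -0.39.

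Plk3, which encodes a kinase of the stress response, was near background. Its log2 values were 7.41, 7.29, 6.77 and 7.05 in control and 6.97, 5.90, 6.72 and 6.88 in a3a6KO. The a3a6KO 2 array had the lowest value, the only one under background, and the other a3a6KO values lay within or just under the range of the controls. The difference was -0.51 (SE 0.264, limma adjusted p = 0.944), and -0.27 without a3a6KO 2.

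Btg2 and Plk3 are also immediate early genes, which respond within minutes to growth signals and to tissue dissociation. Of the 18 other immediate early genes examined, 17 exceeded background on every array, 12 were lower and 6 higher in a3a6KO, with a median of -0.15, and 0 passed the threshold. Their mean deviation was between -0.15 and 0.26 in control and between -0.39 and 0.16 in a3a6KO. It was lowest on a3a6KO 3 and highest on control 1, which were also the lowest and the highest array for Btg2. Atf3, a stress-induced transcription factor gene, differed by -0.45 (SE 0.20) and Fos by -0.47 (SE 0.301). Egr3, Zfp36, Jun and Egr1 differed by -0.66, -0.35, -0.15 (0.06 without a3a6KO 3) and -0.21. None of these 6 passed in limma (adjusted p from 0.944 to 0.978). Fosl1 (0.41), Egr2 (0.275) and Ier3 (0.23) were among the immediate early genes with higher means in a3a6KO. The part of dissociation in the values of Btg2 and Plk3 was not tested.

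**Figure D2:**
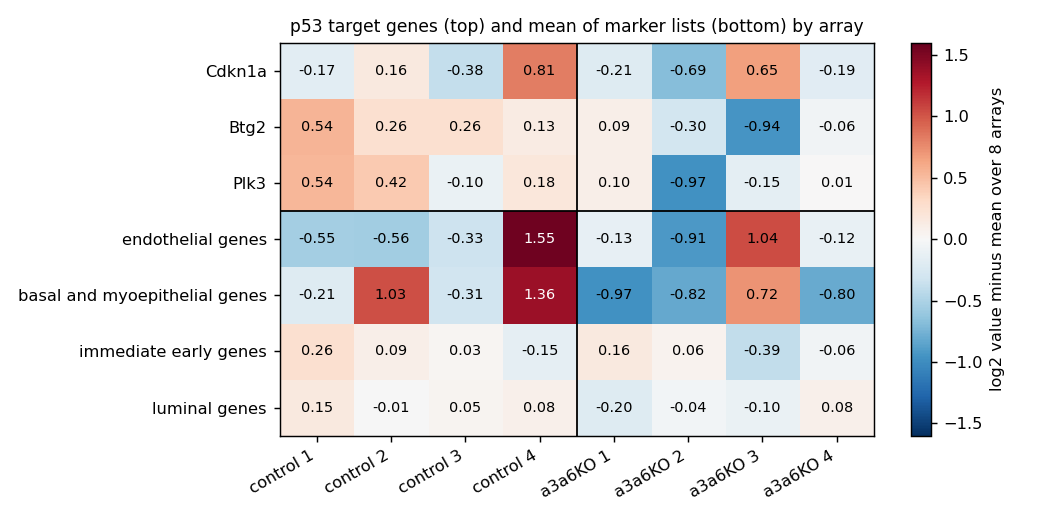
Deviation of each array (columns) from the mean over 8 arrays, in log2 units, for Cdkn1a, Btg2 and Plk3 (top) and for the mean of 4 marker lists (bottom), with red above and blue below the mean. Cdkn1a and the endothelial list are both highest on control 4 and a3a6KO 3, and Btg2 and the immediate early list are both lowest on a3a6KO 3.

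Mdm2, whose product degrades p53, was close to background, with a higher mean in a3a6KO. Its log2 values were 6.62, 7.22, 6.60 and 6.38 in control and 7.34, 7.22, 6.62 and 6.53 in a3a6KO. The values of a3a6KO 1 and 2 were as high as or higher than the top control, while those of a3a6KO 3 and 4 lay among the controls. The difference was 0.22 (SE 0.257, 95% interval from -0.36 to 0.80, limma adjusted p = 0.956), and with single arrays left out it was between 0.085 and 0.39. A rise of more than 1.74-fold lay outside the interval.

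Ccng1, which encodes cyclin G1, a p53 target that feeds back on Mdm2, was under background on every array. Its log2 values were 4.51, 5.13, 5.64 and 4.85 in control and 5.08, 4.61, 4.58 and 4.24 in a3a6KO, between the 76.2 and 91.6 percentiles of the intron sets. The groups overlapped, and the difference was -0.41 (SE 0.272, limma adjusted p = 0.948), or -0.20 without control 3. Zmat3, an RNA-binding protein gene activated by p53, was at 2.35 to 3.10, between the 29.7 and 56.1 percentiles of the intron sets, so no expression could be told from background. Its difference of -0.23 (SE 0.191) is therefore not a measure of the gene.

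Of the metabolic targets, Dcxr was lower and Sesn2 higher in the mean of a3a6KO. Dcxr encodes dicarbonyl and L-xylulose reductase, an enzyme of sugar metabolism. Its log2 values were 7.74, 7.84, 8.51 and 8.09 in control and 7.33, 6.96, 7.31 and 7.95 in a3a6KO. The a3a6KO 4 value lay within the control range, and the other a3a6KO values lay under it. The means were 8.05 ± 0.34 and 7.39 ± 0.41 (SD, n = 4), a difference of -0.66 with a 95% interval from -1.23 to -0.09. The limma adjusted p was 0.944 (unadjusted p = 0.0284). Dcxr and Btg2 were the 2 members with an unadjusted p under 0.05, both lower in a3a6KO, as were 2.73% of all genes, and both among the genes picked earlier for small p.

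Ephx1, the microsomal epoxide hydrolase gene, was at 5.33, 6.43, 6.26 and 5.02 in control and 5.33, 5.34, 5.25 and 4.41 in a3a6KO. Control 2 and 3 were high, and control 1 and 4 lay among the a3a6KO values. The difference was -0.68 (SE 0.357, limma adjusted p = 0.944), measured under background on every array. Sesn2, a stress-induced gene whose product restrains mTORC1 signalling, was at 4.47, 3.77, 4.29 and 3.82 in control and 5.24, 4.27, 4.11 and 4.41 in a3a6KO, also under background. The a3a6KO 1 value was the highest and the others lay within the range of the controls. The difference was 0.42 (SE 0.28, limma adjusted p = 0.948), and 0.18 without a3a6KO 1.

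With a3a6KO 3 and 4 left out, the arrays on which Itga6 exceeded background, limma called 0 of the 9 members, and 7 were still lower and 2 higher. The differences of Cdkn1a and Mdm2 were then larger and of opposite sign, at -0.56 (SE 0.358, limma adjusted p = 0.916) and 0.58 (SE 0.271, limma adjusted p = 0.909). Ccng1 differed by -0.19, Btg2 by -0.40, Plk3 by -0.70, Dcxr by -0.90, Ephx1 by -0.43, Zmat3 by -0.36 and Sesn2 by 0.67. Only a3a6KO 1 and 2 stood for the group in this fit, while control 4, the control array highest in Cdkn1a, was kept. Cdkn1a differed by -0.47 without a3a6KO 3 alone and by -0.19 without a3a6KO 4 alone. With control 4 and a3a6KO 3 left out, it differed by -0.23. A link of these values to the level of Itga6 was not tested.

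**Figure D3:**
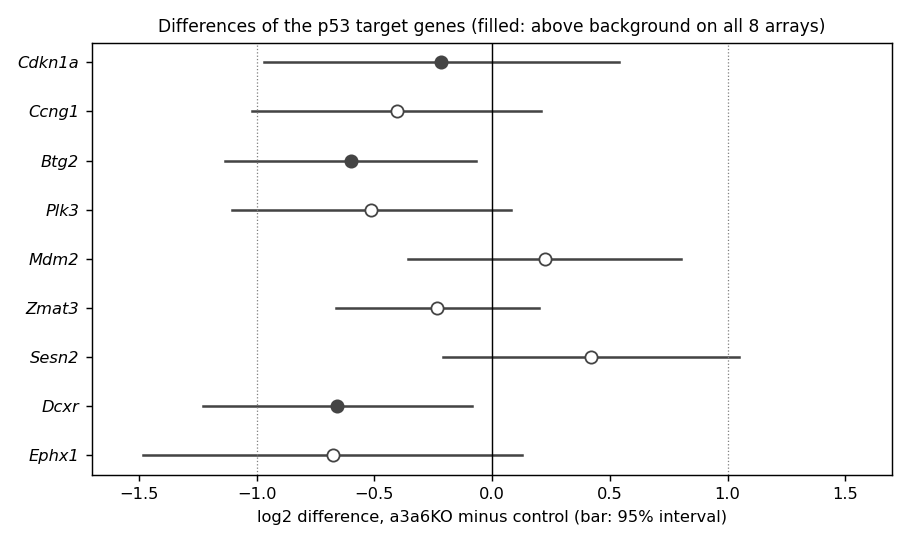
Log2 difference, a3a6KO minus control, of 9 p53 target genes with its 95% interval from limma (horizontal bars; dotted lines mark a 2-fold change), filled where the gene exceeded background on all 8 arrays. The intervals of Btg2 and Dcxr lie under 0 before adjustment, and those of the other 7 genes include 0.

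The other p53 targets were split in direction. Of 52 further targets listed by role, 45 were measured, 20 of them higher and 25 lower in a3a6KO, with a median difference of -0.03 and 0 past the threshold. Background was exceeded on every array by 5 of the 45 and on no array by 29, against 1609 and 14900 of all 19505 genes. With Cdkn1a, Btg2 and Dcxr included, 8 p53 targets exceeded it on every array, and Pcna and Btg1 were the ones with higher means in a3a6KO. The p53 target gene lists, like the members, were drawn up with earlier results of these arrays known.

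Among cell cycle arrest targets, 5 of 7 were lower, with a median of -0.05. Gadd45a, a growth arrest gene induced by DNA damage, was at 7.91, 7.22, 8.11 and 6.85 in control and 7.22, 6.89, 6.93 and 6.38 in a3a6KO. Control 1 and 3 exceeded every a3a6KO array, and the difference was -0.67 (SE 0.306, limma adjusted p = 0.944). Sfn, which encodes stratifin and is also a gene of keratinocytes, differed by -0.65 (SE 0.309), Rprm by -0.40 and Gtse1 by 0.37, the latter pair under background on every array.

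Among apoptosis targets, 6 were higher and 9 lower of 15 measured, with a median of -0.05, and 11 exceeded background on no array. Perp, a gene of desmosomes and apoptosis that the p53 relative p63 also activates, was at 6.36, 9.55, 9.18 and 6.59 in control and 6.23, 5.91, 6.44 and 8.21 in a3a6KO. Control 2 and 3 and a3a6KO 4 stood high. Among basal keratin genes, Krt5 was highest on these 3 arrays, whereas Krt14 was higher on control 4 (8.72) and a3a6KO 3 (8.87) than on a3a6KO 4 (8.11). The 12 basal and myoepithelial markers together had mean deviations of 1.03 on control 2, -0.31 on control 3 and -0.80 on a3a6KO 4. Within each group they were highest on control 4 (1.36) and a3a6KO 3 (0.72), where Perp was at 6.59 and 6.44. The part of basal cells in the values of Perp was not tested. Perp differed by -1.22 (SE 0.803, limma adjusted p = 0.948). Bid differed by 0.49, Dram1 by -0.34 and Trp53inp1 by 0.44, all under background.

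DNA repair and nucleotide targets were higher in 5 of 7, with a median of 0.31, and 6 of the 7 exceeded background on no array. Pcna, the sliding clamp of DNA replication and repair, was the exception, at 8.53, 9.03, 9.17 and 9.0 in control and 9.37, 9.52, 9.0 and 9.58 in a3a6KO. All a3a6KO arrays but a3a6KO 3 exceeded every control, and the difference was 0.44 (SE 0.204, limma adjusted p = 0.944). Rrm2b, the p53-inducible ribonucleotide reductase subunit gene, differed by 0.56 (SE 0.407), Polh by 0.41 and Xpc by 0.31.

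Metabolic and redox targets were lower in 6 of 9, with a median of -0.29. Gpx1, which encodes glutathione peroxidase, was above background throughout and differed by -0.29 (SE 0.166, limma adjusted p = 0.946). Lpin1 differed by -0.63 (SE 0.304). Aldh4a1 lay between the 35.5 and 60.4 percentiles of the intron sets and Tigar between the 32.4 and 58.1. Their differences of -0.41 and 0.37 are therefore not measures of these genes. Of 7 remaining targets 4 were higher, with a median of 0.08. In this list Sat1, a polyamine catabolism gene, differed by -0.25, Pml by 0.27, Eda2r by -0.23 and Zfp365 by 0.32, none past the threshold (limma adjusted p from 0.950 to 0.976) and the latter 3 under background on every array. The difference of Zfp365 was -0.28 without a3a6KO 3, where it was at 5.78. Eda2r lay between the 15.6 and 56.1 percentiles of the intron sets, so its difference is not a measure of the gene.

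Regulators of p53 were split, with 12 higher and 9 lower of 21 and a median of 0.0025. Usp7, which encodes a deubiquitinase that stabilises Mdm2 and p53, was at 7.66, 7.51, 7.81 and 7.27 in control and 7.95, 8.15, 8.53 and 8.48 in a3a6KO, above background on every array. Every a3a6KO value exceeded every control value. The difference was 0.72 (SE 0.197, 95% interval from 0.27 to 1.16), with a limma adjusted p over all genes of 0.944 (unadjusted p = 0.00522). Mdm4, the partner of Mdm2 in holding p53 inactive, differed by -0.58 (SE 0.323) and the acetyltransferase gene Kat5 by 0.33. The DNA damage kinase gene Prkdc lay between the 24.3 and 52.7 percentiles of the intron sets, so its difference of 0.32 is not a measure of the gene.

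Of the p53 family, Trp63 encodes p63, which binds the same sequence as p53 and marks basal cells. It was at 5.24, 8.37, 6.12 and 6.45 in control and 4.39, 3.18, 5.12 and 3.77 in a3a6KO, above background on control 2 alone. The groups did not overlap, and the difference was -2.43 (SE 0.641, limma adjusted p = 0.944, unadjusted p = 0.00404). Basal and myoepithelial markers were lower in all 12 genes, Trp63 among them, with deviations of -0.31 to 1.36 in control and -0.97 to 0.72 in a3a6KO. The part of a different content of basal cells in the values of Trp63 was not tested. Trp73 was under background on every array and differed by 0.07, or by -0.06 without a3a6KO 4. It lay between the 37.5 and 61.3 percentiles of the intron sets, so this difference is not a measure of the gene.

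Cell cycle genes that p21 lowers through the DREAM repressor complex were higher in 13 and lower in 8 of 21, with a median of 0.19 and 0 past the threshold. On no array was background exceeded by 15 of the 21, against 14900 of all 19505 genes. Kif20a, a kinesin gene of cell division, was at 3.45, 2.39, 3.01 and 2.62 in control and 4.19, 3.87, 4.31 and 4.00 in a3a6KO, without overlap and under background on every array. Its values lay between the 34.1 and 77.1 percentiles of the intron sets. Kif20a differed by 1.23 (SE 0.243, limma adjusted p = 0.743). Cenpf differed by 0.91, Cdc25c by 0.46 and Cdk1 by 0.68, likewise under background. The mean deviation of the list was between -0.24 and -0.04 in control, and at 0.30, 0.36, -0.24 and 0.13 on a3a6KO 1 to 4.

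**Figure D4:**
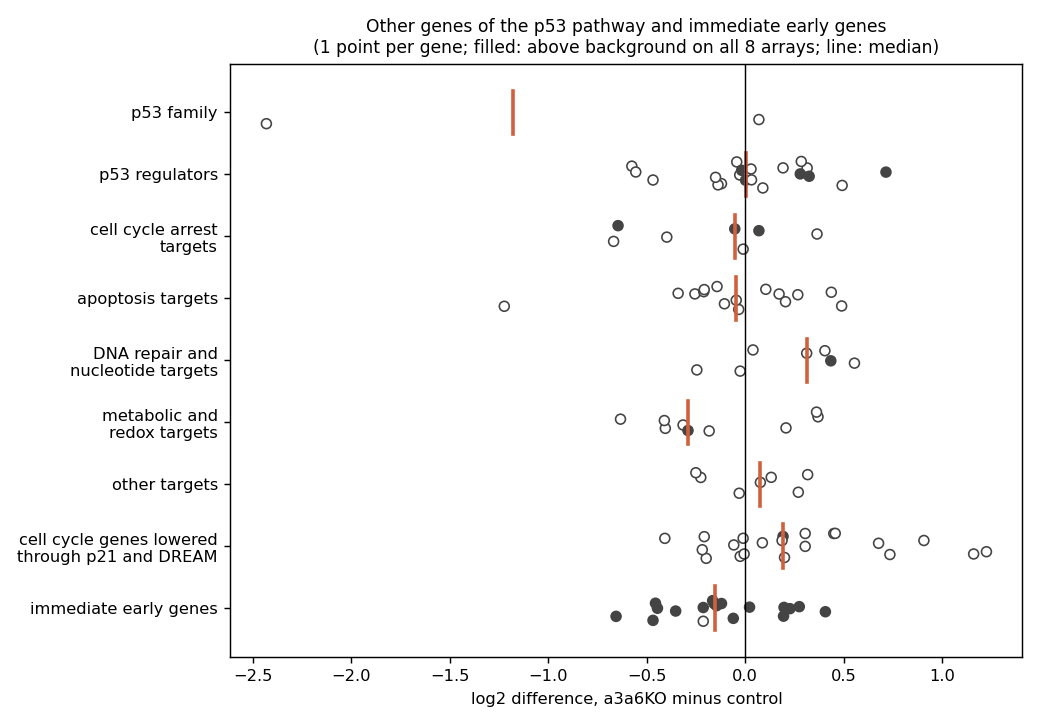
Log2 difference, a3a6KO minus control (horizontal axis), of the other measured genes of the p53 pathway by role and of immediate early genes, 1 point per gene, filled where the gene exceeded background on all 8 arrays, with the median of each list as an orange line. The medians run from -0.29 in metabolic and redox targets to 0.31 in DNA repair and nucleotide targets, apart from the p53 family, which holds 2 genes.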

How the data were processed

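Per the labels' protocols, RNA of sorted cells was extracted on Qiagen micro-columns and amplified with the Ovation Pico WTA System V2, then labelled with biotin. The authors deposited a log2 value for each probe set on each array, made with Affymetrix Expression Console and RMA per the submitters' processing notes, which give no versions. They were tested as deposited. Gene names came from the platform annotation in GEO, which gave a single symbol for 19572 of 28846 sets, several for 0 and none for 9274. For a symbol with several sets, the one of highest mean was kept, and each member had 1 set. Groups were compared with lmFit and eBayes of limma 3.58.1 under R 4.3.3 (8 arrays, two-sided, Benjamini-Hochberg over 19505 genes, threshold 0.05), checked on simulated data. A list's mean deviation on an array averages, over its genes, how far the log2 value lay from that gene's mean of the 8 arrays. The number of arrays limits precision: the median standard error over genes was 0.234.

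The members and lists were chosen with earlier results of these data known. Named were the members, Itga3, Itga6, Krt5, Krt8, Krt14, Csn2, Fos, Jun, Egr1, Atf3, up to 4 genes of smallest p in each pathway list, and 3 genes closest to Cdkn1a. Btg1, Fosl1, Egr2, Ier3, Muc1, Lalba and Wap were named after their values were seen. Other cell type markers gave medians of 0.08 (luminal, 13 genes), -0.59 (basal, 12), -0.07 (endothelial, 8), -0.02 (fibroblast, 7), -0.14 (leukocyte, 8) and 0.08 (adipocyte, 5), with 0 genes past the threshold. Of the luminal markers 7 were higher and 6 lower in a3a6KO. Muc1 (-0.745), Lalba (-0.74) and Wap (-0.585) were the 3 with an unadjusted limma p under 0.05, as had 5.13% of all genes. Alternatives left out each array, added a replicate block, array weights or a robust trend, left out dim genes, averaged probe sets, or subtracted the median of intron sets or of genes.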

Additional observations from a re-analysis of the deposited data

Results flagged for a closer look

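In groups of 4, a single array was flagged where it lay apart from the other 3 by more than Dixon's 95% critical value. This held in 12 of 150 groups of values examined, where chance alone gives about 1 in 20 for independent groups. The groups came from the same 8 arrays and partly shared genes, so the count cannot show an excess over chance. Among the p53 target genes the flagged values were Zmat3 on control 4 (2.67) and on a3a6KO 2 (2.35), and Ephx1 on a3a6KO 4 (4.41), all under background. Dram1 (3.96) and Trp53inp1 (3.28) stood apart on a3a6KO 2, both under background. Within the same group, Csn2 was lowest on a3a6KO 1 (12.2) and Zfp36 on a3a6KO 3 (10.2). Among list means, and within the a3a6KO group, the p53 regulators were lowest on a3a6KO 3 (-0.12) and the DNA repair and nucleotide targets on a3a6KO 1 (-0.18). The a3a6KO 3 array was highest within its group for basal and myoepithelial markers (0.72) and for fibroblast markers (0.68), and control 4 was highest within its group for endothelial markers (1.55).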

How the results depend on the processing

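Under 17 alternatives, 2 of them (arrays left out in pairs) added after the data were seen, limma called 0 genes and 0 members. The replicate block, the robust trend, averaged probe sets and the filter on dim genes cannot move a member difference; under the others, 116 of 117 member differences kept their direction. The exception was Cdkn1a, which ranged from -0.47 to 0.02 when single arrays were left out. With the replicate block, 0 genes and 0 members were called. Same-numbered arrays correlated at -0.0606 to 0.0395 in their deviations from the group means, and 0 of the 4 numbers matched best with their own. These correlations run over all genes, most of them near background, and cannot exclude a shared batch. The median of the intron control sets fell with rising number, from 3.07 to 2.85 in control and from 3.03 to 2.93 in a3a6KO. Whether the numbers stand for a shared batch was not tested. Over single arrays left out, the median difference of the members was between -0.56 and -0.27. Ccng1, Zmat3, Sesn2 and Ephx1 gave no value with dim genes left out. Small changes in genes near background would be missed. Large differences could fail to pass as well. Itga6, above background on all 4 control arrays, differed by -2.46 (SE 0.855) without overlap of the groups. Its limma adjusted p was 0.944. That 0 members were called is therefore no evidence that they were unchanged.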
